A study of Mus musculus with 30 samples.

Results

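The comparison asked what had changed in the mouse hypothalamus 1 h after food was returned at the end of a 72 h fast. It used 6 of the 30 bulk RNA-seq libraries of the series: 3 from mice fasted for 72 h and 3 from mice fasted for 72 h and then refed for 1 h. All 6 are labelled hypothalamus of wild-type B6 mice. The labels give no age, no hour of collection and no statement that each library was 1 animal. P-values therefore measure the spread between libraries, pooled over the 22 libraries of 7 groups that were fitted together. The members were chosen by their labels alone, and a change is always 1 h refed minus 72 h fasted.

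The 72 h libraries stand in one deposited count table with fed, 24 h fasted and 72 h fasted mice kept at 18 °C, and the 1 h libraries stand in another with 12 h and 1 week refed mice. Count table and feeding state therefore cannot be told apart in this comparison. For that reason each change is set beside the change from fed (3 libraries) to 1 week refed (4 libraries), which crosses the same pair of tables and shares no library with it, and beside 32 reference genes not expected to respond. Table and 1 week of refeeding cannot be told apart in that second change. A difference of the 2 changes was tested in the same model. It takes out an offset between tables only if fed and 1 week refed mice do not otherwise differ. The step from 1 h to 12 h of refeeding (3 libraries) lies within one table, and it shares the 1 h libraries with the main comparison.

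Feeding state reaches the hypothalamus through leptin, ghrelin, insulin, glucose and nerves from the gut. AgRP/NPY neurons of the arcuate nucleus drive feeding and POMC neurons restrain it. When neurons of any kind are activated, a set of immediate early genes is transcribed within minutes without new protein synthesis, from promoters that carry cyclic AMP response elements and serum response elements; many encode transcription factors (Fos, Jun, Egr and Nr4a families) and others act at the synapse or switch the signal off again. A long fast also raises circulating glucocorticoids, which act on their own set of target genes.

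Immediate early genes rose together in the first hour. Of the 35 listed, 25 rose and 1 fell (adjusted p under 0.05), against a background of 15.4% of all 20966 tested genes called higher and 19.1% called lower. Their median log2 fold change was 0.90, where the median of all genes was -0.09. Between fed and 1 week refed the same list had 0 members called higher and 13 lower, with a median of -0.43 (background 19.8% higher and 22.9% lower), so the change between tables in mice outside the comparison had the opposite sign. In the test of the difference 26 of the 35 were higher and 0 lower, with 7.27% of all genes called higher and 8.47% lower. All 25 that rose also passed that test, where 3.54% of all genes were higher in both.

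Of these 25 genes 20 have an entry in the RefSeq promoter table, and the 250 bases before the transcript start are shown for 4 of them that rose together: Fos, Egr4, Nr4a1 and Btg2 (GRCm38.p6, the RefSeq version of the mm10 build named in the submitters' processing notes). Each is written 5′ to 3′ on the gene's own strand, and capitals mark the core of the cyclic AMP response element, TGACG, or its reverse complement CGTCA. The windows are chr12:85473640-85473889 (plus strand) for Fos, chr6:85513590-85513839 (minus strand) for Egr4, chr15:101266596-101266845 (plus strand) for Nr4a1 and chr1:134079156-134079405 (minus strand) for Btg2.
Fos: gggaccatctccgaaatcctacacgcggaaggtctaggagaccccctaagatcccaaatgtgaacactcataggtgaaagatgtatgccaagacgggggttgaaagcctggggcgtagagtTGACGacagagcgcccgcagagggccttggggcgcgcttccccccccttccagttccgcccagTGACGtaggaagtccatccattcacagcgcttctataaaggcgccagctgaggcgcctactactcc
Egr4: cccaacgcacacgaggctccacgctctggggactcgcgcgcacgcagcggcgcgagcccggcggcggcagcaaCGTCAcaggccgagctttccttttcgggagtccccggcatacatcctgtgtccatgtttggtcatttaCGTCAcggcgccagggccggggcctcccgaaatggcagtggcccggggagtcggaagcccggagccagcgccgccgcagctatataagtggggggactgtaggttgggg
Nr4a1: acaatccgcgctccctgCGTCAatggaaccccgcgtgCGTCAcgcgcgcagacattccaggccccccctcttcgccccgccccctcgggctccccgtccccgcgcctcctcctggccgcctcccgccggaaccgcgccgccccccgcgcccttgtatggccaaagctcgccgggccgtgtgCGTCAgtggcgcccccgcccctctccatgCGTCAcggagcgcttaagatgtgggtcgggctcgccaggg
Btg2: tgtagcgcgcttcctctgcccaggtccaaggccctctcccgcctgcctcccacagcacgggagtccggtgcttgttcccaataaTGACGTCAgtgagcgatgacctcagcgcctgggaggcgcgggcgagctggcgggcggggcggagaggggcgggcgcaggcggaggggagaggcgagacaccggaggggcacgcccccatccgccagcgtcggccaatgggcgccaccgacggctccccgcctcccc
In Fos the matches start at -129 and -66, counted back from the transcript start, and in Btg2 the match at -166 is the full palindrome TGACGTCA. The core was found in at least 1 promoter window of 15 of the 20 genes, or 75%, searching both strands. The share was 26.2% of the 14105 tested genes with a promoter entry and 31.0% of the 2452 genes called higher with one. The full palindrome was found in 2 of the 20, Btg2 and Dusp1, and in 2.59% of tested genes. A match is a run of letters and was not tested as a binding site.

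The AP-1 genes, whose products pair as Fos and Jun dimers, rose with wide gaps between the groups. Fos (chr12:85473890-85477273, mm10), the usual marker of recently active neurons, stood at 3.36, 2.45 and 3.75 CPM (counts scaled to a common library size) in the 72 h libraries and at 31.1, 32.5 and 27.8 CPM at 1 h. The groups did not overlap, which held in this direction for 22.2% of all genes and in the other for 29.5%, and every 1 h library lay above every fed library (9.61 to 17.5 CPM). The log2 fold change was 3.25 ± 0.23 (SE; adjusted p = 2.64e-08), or 9.50-fold. Fosb was at 2.07, 1.18 and 1.13 CPM and then at 15.4, 10.6 and 17.0 CPM, a log2 fold change of 3.30 ± 0.35. Junb went from 6.67, 5.79 and 4.81 CPM to 48.5, 35.1 and 40.1 CPM, a log2 fold change of 2.84 ± 0.22. Fosl2 (log2 fold change 2.26) and Jun (0.69) also rose. Jund, the AP-1 member that is expressed at rest, was at 36.0 to 51.6 CPM before and 30.1 to 35.5 CPM after and did not pass the test (adjusted p = 0.117).

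The Egr zinc finger factors rose as well. Egr4 was at 1.08, 1.30 and 0.56 CPM in the fasted libraries and at 27.6, 16 and 23.8 CPM at 1 h, a log2 fold change of 4.55 ± 0.50 (adjusted p = 3.90e-06). Egr3 went from 5.32, 2.29 and 3.49 CPM to 51.0, 26.7 and 44.5 CPM, a log2 fold change of 3.45 ± 0.57. In both genes the second 1 h library was the lowest of its group and still stood far above all fasted libraries. Egr2 had a log2 fold change of 3.41 and Egr1 one of 2.36. Among the Nr4a orphan nuclear receptors Nr4a3 (2.67) and Nr4a1 (2.20) rose, while Nr4a2, which also marks established dopamine neurons, did not differ beyond its error (-0.09 ± 0.24, adjusted p = 0.805).

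Genes that act at synapses or downstream of calcium were split. Arc, which controls AMPA receptor uptake, rose from 9.40, 9.85 and 8.01 CPM to 62.3, 43.6 and 49.4 CPM, a log2 fold change of 2.51 ± 0.29. Npas4, a factor induced by calcium entry in neurons, rose from 2.54, 4.21 and 3.31 CPM to 15.8, 12.0 and 16.4 CPM (2.14 ± 0.30). Homer1, whose short form remodels glutamate receptor scaffolds, rose by a log2 fold change of 0.73; its long and short forms are not separated in gene counts. Bdnf (-0.20 ± 0.15, adjusted p = 0.318) and Nptx2 (0.15 ± 0.26, adjusted p = 0.685), which are activity-dependent in many brain regions, did not pass the test. Genes that limit the response rose by smaller amounts: Btg2 by 1.27, the salt-inducible kinase gene Sik1 by 1.03, and the MAP kinase phosphatase gene Dusp1 by 0.79 on the log2 scale. Crem, the source of the cyclic AMP repressor ICER, was the 1 member that fell (log2 fold change -0.40, adjusted p = 0.0138).

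**Figure D1:**
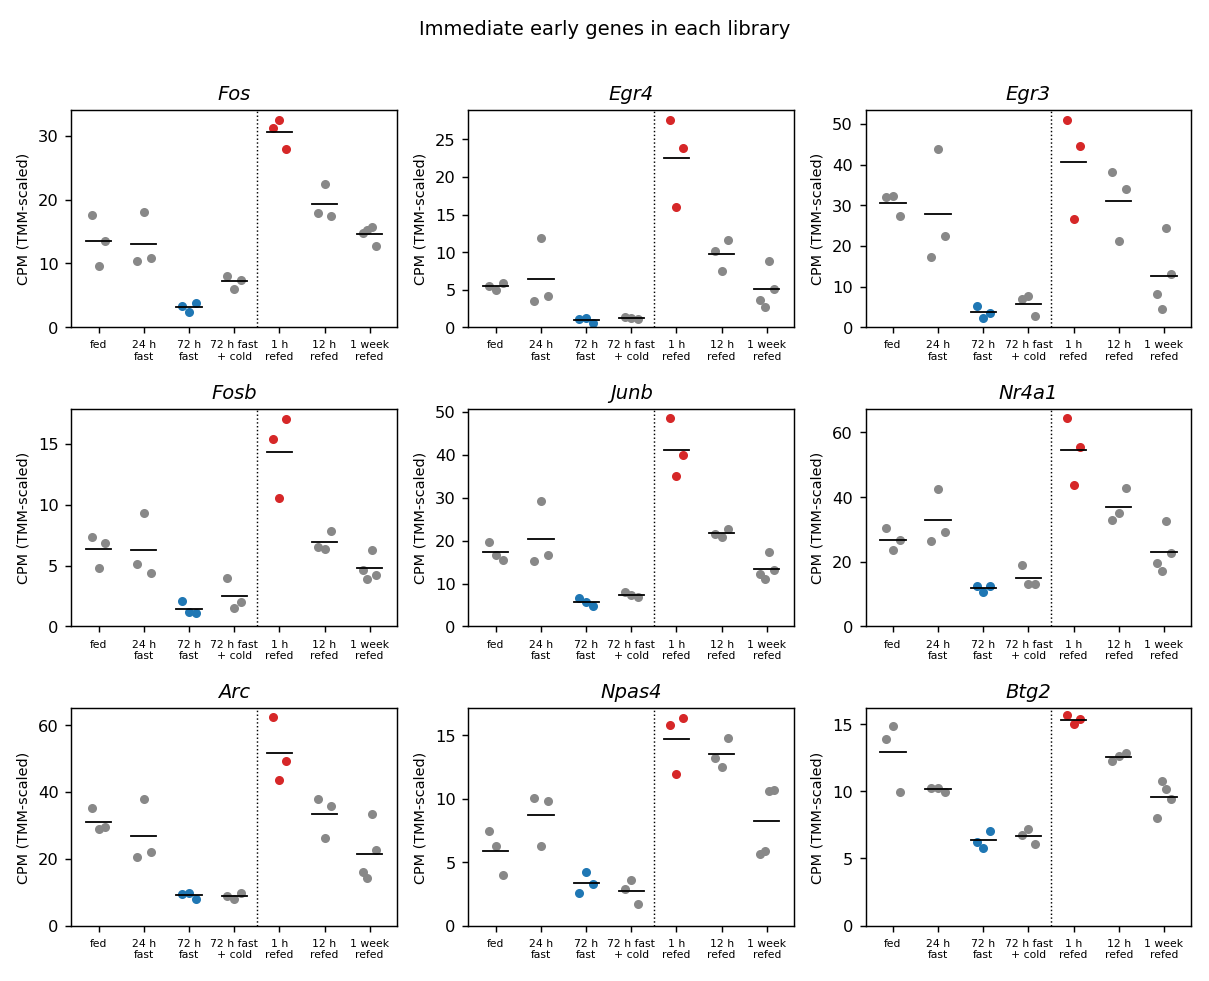
CPM (TMM-scaled, linear axes from 0) of 9 immediate early genes in each of 22 libraries of 7 groups; points are libraries, bars are group means, blue is 72 h fasted, red is 1 h refed, and the dotted line separates the 2 count tables. In each panel the 3 red points lie above the 3 blue points; Fos, for example, runs from 27.8 to 32.5 CPM at 1 h and from 2.45 to 3.75 CPM at 72 h.

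Most of these genes were lower after the 72 h fast than in fed mice, and higher at 1 h than at 12 h of refeeding. Of the 25 genes that rose, 24 had a lower mean at 72 h than in fed mice, and for 15 the lowest 1 h library lay above all 3 fed libraries, which held for 23.9% of all genes. In 24 of the 25 the mean at 1 h exceeded that at 12 h, and in 19 every 1 h library lay above every 12 h library, which held for 15.8% of all genes. The shares of all genes with these orders of means were not computed. Picking genes by a rise from 72 h to 1 h favours a low 72 h mean and a high 1 h mean. The fall to 12 h passed the test for 6 of the 35 (background 2.75% of genes called lower and 1.75% higher): Jun, Junb, Ier3, Per1, Klf4 and Klf2. That count was 2 without the first 1 h library or without the first or second 12 h library, 3 without the second 1 h library or scaled to reference genes, and 0 with the second 1 h library alone. It was 10 with a striatal score (the mean log2 CPM of 12 markers of striatal projection neurons) as a covariate in the model, 12 with DESeq2, and 18 of 34 when these groups were fitted alone. Junb fell by 0.92 (log2; adjusted p = 0.0109); for Fos, at 17.5 to 22.4 CPM after 12 h, the step was -0.66 ± 0.20 (adjusted p = 0.0658).

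Markers of striatal projection neurons moved together with these genes. All 12 listed were higher at 1 h, with a median log2 fold change of 1.85, and 7 of the 12 also passed the test of the difference. From 72 h to 1 h the 12 calls became 5 without the first 1 h library and 6 without the third 72 h library. Their summed level was 504, 431 and 463 CPM in the 72 h libraries and 1469, 637 and 1112 CPM at 1 h. Drd1, the dopamine D1 receptor, was at 11.1, 3.90 and 3.40 CPM and then at 54.6, 15.2 and 37.1 CPM. The dendritic genes Kcnj4 (log2 fold change 3.01), Rin1 (2.87) and Itpka (2.79), which forebrain neurons express strongly, rose too. In bulk tissue, more cells of a type and more RNA per cell cannot be told apart.

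The summed level of the immediate early list had the same order across the 1 h libraries as the striatal sum: 1163, 952 and 1095 CPM, after 528, 452 and 461 CPM at 72 h. Of the 25 genes that rose, 19 were lowest in the second 1 h library, among them Fosb, Junb, Egr1 to Egr4 and Arc, and 5 were highest there: Fos, Jun, Ier2, Ier3 and Sik1. The fed libraries had striatal sums of 804, 1192 and 673 CPM and immediate early sums of 877, 762 and 824 CPM, in another order. At 12 h the striatal sums were 1503, 1224 and 1563 CPM and the immediate early sums 795, 685 and 815 CPM. When the striatal score was added to the model, 17 of the 35 immediate early genes were called higher, all of them among the 25, and 0 lower, with a median of 0.71; Fos was at 3.41 and Junb at 2.32, while Egr3 went from 3.45 to 1.75 and Egr4 from 4.55 to 3.38 on the log2 scale. With only the second library in the 1 h group, assuming that it varies like the other groups, 19 were called higher and 0 lower. Both of these settings were chosen after the data were seen. In the test of the difference 16 of the 35 were higher and 0 lower with the striatal score, at a median of 1.25. With the second 1 h library alone that median was 1.41. The part of the striatal signal in these changes was not tested.

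**Figure D2:**
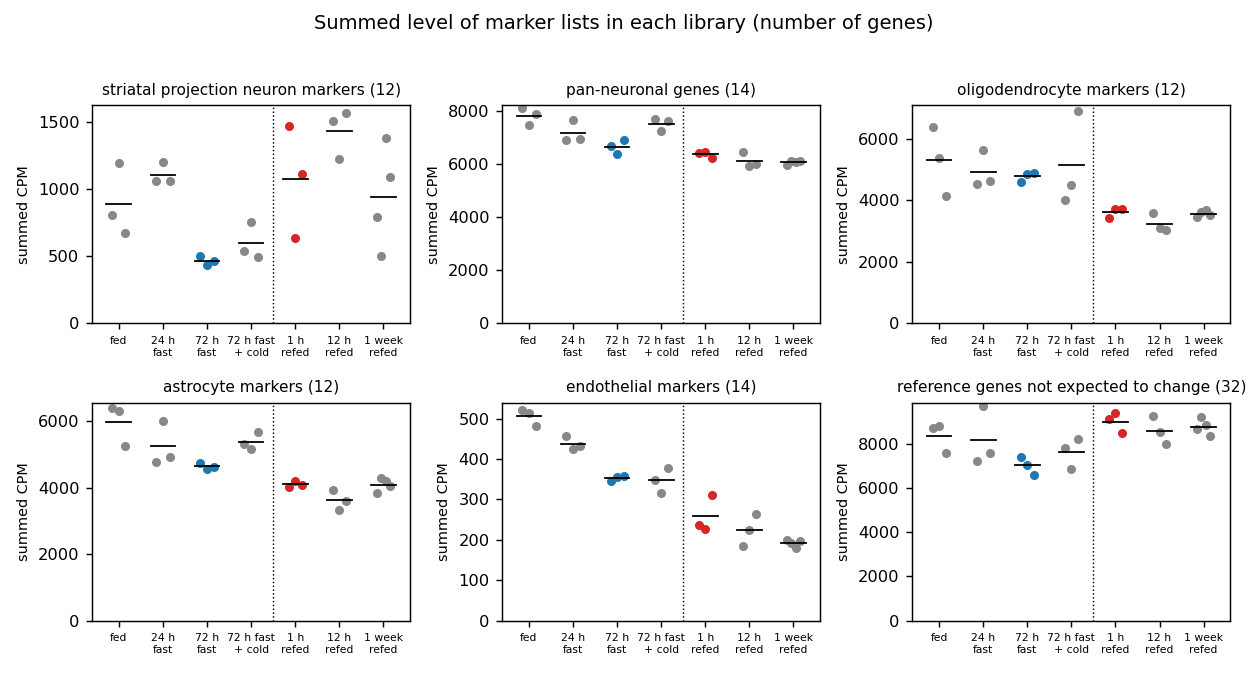
Summed CPM (linear axes from 0) of 6 marker lists in each of 22 libraries, with group means as bars, 72 h fasted in blue and 1 h refed in red; the dotted line separates the count tables. The striatal sum runs from 431 to 504 CPM at 72 h and from 637 to 1469 CPM at 1 h, while the reference gene sum runs from 6596 to 7406 CPM and from 8500 to 9374 CPM.

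The reference genes show how far genes not expected to respond can move in this comparison. Of 32, 9 were higher and 5 lower, where 34.5% of all genes were called, and their median change was 0.00. In the test of the difference 4 were called higher and 0 lower. Among the 9 called higher were Polr2a, the large subunit of RNA polymerase II (0.61), and Ap3d1, an adaptor subunit (0.50). Tfrc, the transferrin receptor, was not called (0.00 ± 0.11). Ap3d1 was also called higher at 1 week than in fed mice (0.34). When libraries were scaled to the summed counts of the reference genes, the median of all genes moved from -0.09 to -0.45. The reference genes then had 2 called higher and 20 lower, with a median of -0.37. A sum gives most weight to the most abundant genes, so this scaling is an alternative and not a neutral correction.

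Over all genes 3223 were higher and 4013 lower at 1 h, and 1418 of these calls exceeded 2-fold. Between fed and 1 week refed 4145 were higher and 4798 lower; the difference of the 2 changes was called higher for 1524 genes and lower for 1775. From 1 h to 12 h only 367 rose and 576 fell. Total counts per library were 31512969 to 43397395 in the 72 h group and 28478043 to 33077615 at 1 h. Longer genes were lower at 1 h: the median log2 fold change was -0.23 in the sixth of genes with the longest span and 0.00 in the shortest, against 0.09 and -0.09 from fed to 1 week refed.

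**Figure D3:**
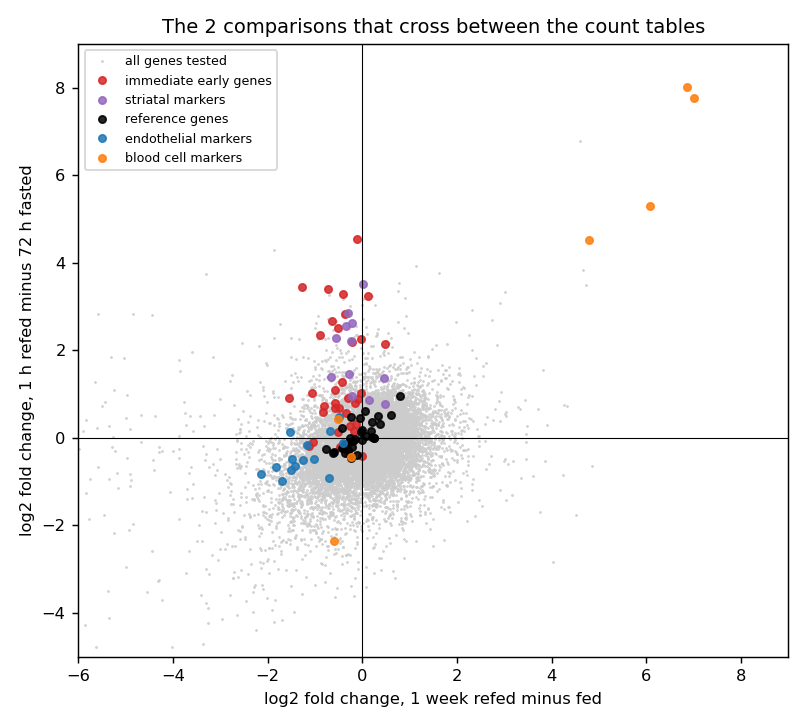
Log2 fold change from 72 h fasted to 1 h refed (vertical) against that from fed to 1 week refed (horizontal), both on linear axes, for all 20966 genes in grey and 5 lists in colour; points beyond the axes are not drawn. Immediate early genes (red) and striatal markers (purple) lie high near the vertical axis, whereas 4 globin genes (orange) are high on both axes.

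The appetite peptides of the arcuate nucleus were mostly flat in the first hour. Of 11 genes for these peptides and their processing enzymes, 1 rose and 0 fell. Npy (chr6:49822710-49829507, mm10), the orexigenic neuropeptide Y, was at 16.3, 15 and 13.7 CPM after the fast and at 27.2, 29.7 and 31.8 CPM at 1 h. The groups did not overlap, and the log2 fold change was 0.98 ± 0.21 (adjusted p = 0.00108). From fed to 1 week refed Npy was lower (-0.98), so that the difference was 1.96 (adjusted p = 4.59e-04). Npy is also made by striatal and cortical interneurons, and with the striatal score in the model its change was 0.54 (adjusted p = 0.144).

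Agrp, the melanocortin antagonist made by the same arcuate neurons, did not follow Npy. It stood at 4.72, 6.01 and 5.74 CPM and then at 4.96, 4.87 and 6.36 CPM, with overlapping groups and a log2 fold change of -0.02 ± 0.12 (adjusted p = 0.911); other annotated genes cover 59.9% of its span, and reads from them cannot be separated from its own if the counting ignored strand. It was higher at 12 h than at 1 h (0.49, adjusted p = 0.0280). Pomc, from which alpha-MSH is cut, was at 3.42 to 5.70 CPM after the fast and at 15.3, 6.48 and 3.14 CPM at 1 h, a spread too wide for a call (0.95 ± 0.76, adjusted p = 0.357). Cartpt overlapped between the groups (13.8 to 29.1 CPM and 19.4 to 20.1 CPM).

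Of 21 tested peptide genes of other nuclei 8 rose and 1 fell, a split that became 4 higher and 4 lower when libraries were scaled to reference genes and 1 higher and 0 lower with the striatal score. Only 2 of the 8 also passed the test of the difference. Vgf, a secreted granule protein induced by neuronal activity and fasting, rose from 130, 153 and 113 CPM to 263, 270 and 288 CPM (1.05 ± 0.12, adjusted p = 2.06e-06); it was also 0.61 higher at 1 week than in fed mice. Somatostatin, Sst, rose from a range of 44.5 to 45.4 CPM to one of 66.8 to 80.6 CPM (0.71) and was flat from fed to 1 week refed (-0.10). Pdyn (dynorphin, 1.36), Crh (corticotropin-releasing hormone, 1.36) and Oxt (oxytocin, 1.31) were called higher as well. None of these passed the test of the difference. Oxt was also 1.47 higher at 1 week than in fed mice, with a difference of -0.16. Pdyn and Crh were at 0.61 and 0.46 from fed to 1 week refed and were not called there. Oxt lost its call in 4 of the 6 fits that left out a library of the 72 h or 1 h group, and Pdyn, Crh and Oxt lost theirs when the 1 h group was its second library alone. Hcrt (orexin), Pmch, Avp and Trh had overlapping groups and no call.

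Receptors of feeding signals moved both ways, with 7 higher and 4 lower of 27; scaled to reference genes the counts were 1 and 9, and with the striatal score 1 and 1. The melanin-concentrating hormone receptor gene Mchr1 rose from a range of 5.76 to 7.03 CPM to one of 10.9 to 16.6 CPM (1.09 ± 0.19). The neuropeptide Y receptor genes Npy5r (0.68) and Npy1r (0.57) and the cannabinoid receptor gene Cnr1 (0.56) rose, and these 3 and Mchr1 also passed the test of the difference. Mchr1, Npy1r and Npy5r, which forebrain neurons express too, were not called with the striatal score in the model. Htr2c, the serotonin receptor through which feeding is suppressed, fell by 0.48, and Adipor2 fell by 0.53 but was lower at 1 week than in fed mice as well (-0.68). The leptin receptor gene Lepr (-0.43 ± 0.18, adjusted p = 0.0729), Mc4r (0.52 ± 0.24, adjusted p = 0.110) and Insr (-0.07 ± 0.09, adjusted p = 0.595) did not pass.

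Glucocorticoid-responsive genes had few calls from 72 h to 1 h and many from 1 h to 12 h. From 72 h to 1 h 4 of 27 were higher and 1 lower, a share below the background, with a median of 0.17 that turned to -0.18 (2 higher, 7 lower) when libraries were scaled to reference genes; from 1 h to 12 h 17 were lower and 0 higher, with a median of -0.85 (background 2.75% lower). Of those 17, 13 had not been called between 72 h and 1 h. That step lies within one count table. From fed to 1 week refed 0 of the 27 were higher and 19 lower, with a median of -0.61, and in the test of the difference 15 were higher and 0 lower, with a median of 0.73. That count of 15 was 2 with the striatal score, 6 with a surrogate variable and 7 when scaled to reference genes. It was 13 to 18 in the other fits with more than 1 library in the 1 h group. With the 1 h group reduced to its second library, medians were 0.57 for the difference and -0.81 from 1 h to 12 h.

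Plin4, a lipid droplet coat gene and strong glucocorticoid target, was one of the 17. It was at 58.2, 55.0 and 93.9 CPM after the fast, at 90.4, 85.4 and 102 CPM at 1 h, and at 6.55, 9.49 and 9.97 CPM at 12 h. The change to 1 h was 0.42 ± 0.25 (adjusted p = 0.201) and that to 12 h was -3.41 (adjusted p = 2.35e-06), which is 10.6-fold lower. Fkbp5 (chr17:28399094-28517527, mm10), the co-chaperone that dampens the glucocorticoid receptor, was at 58.3, 49.8 and 50.2 CPM, then at 74.0, 63.7 and 86.5 CPM, and at 26.4 to 34.6 CPM at 12 h. Its rise to 1 h was called (0.50 ± 0.11, adjusted p = 0.00126) and its fall to 12 h was -1.29. Cdkn1a, a cell cycle inhibitor, and Hif3a, a hypoxia factor, were not called at 1 h (0.43 and -0.16) and fell by 2.23 and by 2.06 to 12 h. Per1 and Dusp1, which are on this list and on the immediate early list, rose at 1 h by 0.79 each.

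Of 4 cold-inducible RNA-binding protein genes 0 rose and 1 fell at 1 h, and 2 fell from 1 h to 12 h. Cirbp, an RNA-binding protein gene induced by low body temperature, was at 53.5 to 64.6 CPM after the fast and at 51.2 to 64.5 CPM at 1 h, with a change of -0.08 ± 0.11 (adjusted p = 0.615). Rbm3, its relative, was at 54.6 to 85.5 CPM and at 68.5 to 75.7 CPM (0.04 ± 0.16, adjusted p = 0.862). Both fell from 1 h to 12 h, by 1.18 and by 1.49. Of 14 genes of local thyroid hormone action 5 rose and 1 fell at 1 h, or 3 and 4 when scaled to reference genes, and 1 fell from 1 h to 12 h. Hr, a thyroid hormone target that encodes a corepressor, was that one: it was not called at 1 h (0.21 ± 0.17, adjusted p = 0.376) and fell by 1.56 to 12 h. Thra, a thyroid hormone receptor, rose by 0.75, and Dio3, the deiodinase that inactivates the hormone, rose from a range of 0.15 to 0.30 CPM to one of 0.82 to 1.34 CPM. Slco1c1, the thyroxine transporter of brain vessels, fell by 0.45, beside lower vessel markers.

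**Figure D4:**
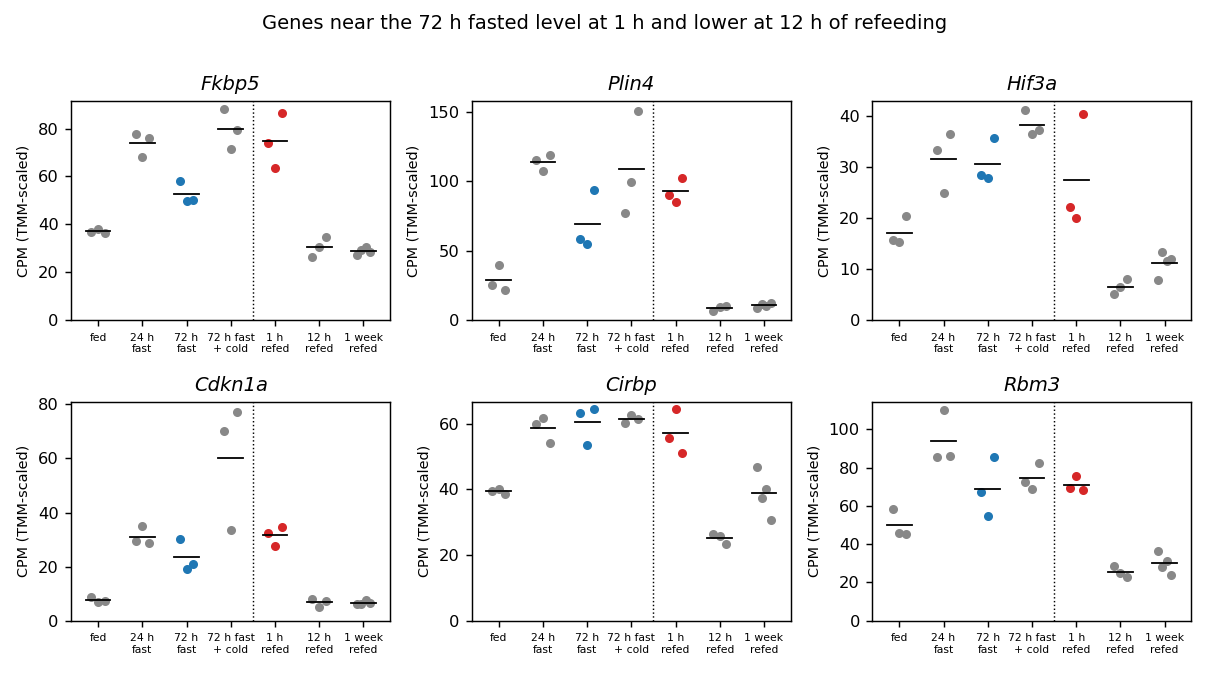
CPM (TMM-scaled, linear axes from 0) of 4 glucocorticoid-responsive and 2 cold-inducible genes in each of 22 libraries; points are libraries, bars are group means, blue is 72 h fasted, red is 1 h refed, and the dotted line separates the count tables. From 72 h fasted to 1 h refed only Fkbp5 was called, and its 1 h points lie above its fasted points. The 12 h points lie below all 1 h points in each panel. Plin4 is at 85.4 to 102 CPM at 1 h and at 6.55 to 9.97 CPM at 12 h.

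Insulin and FoxO signalling genes rose more often than they fell, 12 against 2 of 30, with a median of 0.29 that turned to -0.07 (2 higher, 6 lower) when libraries were scaled to reference genes; 5 of the 12 also passed the test of the difference. Irs2, an insulin receptor substrate under FoxO control, rose from 99.9, 101 and 110 CPM to 141, 148 and 172 CPM (0.57 ± 0.09, adjusted p = 5.20e-05). Between fed and 1 week refed it was not called (-0.08, adjusted p = 0.440) and fell by 0.41 to 12 h. Bcl6 (0.49) and Sesn3 (0.40), a transcriptional repressor gene and a sestrin gene that FoxO factors activate, rose with a difference in the same direction. Tsc2, a brake on mTOR, and Foxo6 rose by 0.64 and 1.20, but were also higher at 1 week than in fed mice, by 0.51 and 0.77. Igf1r and Irs1 were not called (-0.11 and 0.03).

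Fuel and stress lists were mixed. Of 29 genes of fatty acid oxidation and ketone use 4 rose and 5 fell, or 1 and 15 when scaled to reference genes. Slc16a1, a ketone and lactate transporter gene, was at 33 to 39.3 CPM after the fast and at 20.3 to 23.5 CPM at 1 h (-0.73 ± 0.12), and Fabp7, a fatty acid binding protein of radial glia, fell from 12.3, 14.7 and 5.81 CPM to 3.24, 3.56 and 2.29 CPM (-1.85 ± 0.34). Fabp7 passed the test of the difference (-2.04) and Slc16a1 did not (-0.39). Pdk4, which closes the pyruvate dehydrogenase gate in fasting, was not called at 1 h (0.32) and fell by 1.12 to 12 h. Cpt1c, the brain carnitine palmitoyltransferase relative, rose by 0.70, with 0.55 from fed to 1 week refed.

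Of 27 genes of cholesterol and fatty acid synthesis 7 rose and 9 fell, or 1 and 16 when scaled to reference genes. Hmgcs1, which makes the HMG-CoA of sterol synthesis, fell by 1.08, and Fasn, fatty acid synthase, rose by 0.72. Both have the same sign from fed to 1 week refed (-0.85 and 0.33), and in the test of the difference 0 of the list were higher and 2 lower. Glycolysis and glucose transport had 8 of 28 higher and 0 lower, but 0 higher and 7 lower when scaled to reference genes, among them the neuronal glucose transporter gene Slc2a3 (0.50), and 0 of those 8 also passed the test of the difference. ATF4 target genes had 7 higher and 1 lower of 24, with a median of 0.16 that turned to -0.20 (1 higher, 8 lower) when scaled to reference genes. Sesn2, a sensor of leucine, rose by 0.74 and was higher at 1 week than in fed mice too (0.49).

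The cytosolic chaperones had 4 members higher and 7 lower of 21, or 3 and 15 when scaled to reference genes. Hspa1b, the inducible Hsp70, rose from 5.38, 6.35 and 4.51 CPM to 26.5, 26.6 and 12.7 CPM, without overlap of the groups and with a log2 fold change of 2.02 ± 0.27 (adjusted p = 1.91e-05). It was not higher at 1 week than in fed mice (-0.47), and the difference was 2.49. Its near-identical neighbour Hspa1a shares reads with it. Dnajb1, the partner of Hsp70, rose by 0.69, also with a difference above 0 (0.78). Endoplasmic reticulum chaperone genes had 4 higher and 7 lower of 23, or 0 and 13 with that scaling, and Hspa5, the central chaperone of that compartment, was at 143 to 181 CPM and at 141 to 163 CPM (-0.16 ± 0.15, adjusted p = 0.450). Cytosolic ribosomal protein genes had 13 higher and 2 lower of 38, with a median of 0.22 that turned to -0.14 (10 higher, 13 lower) when scaled to reference genes.

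Among the core clock genes 6 rose and 5 fell of 18, or 1 and 8 when scaled to reference genes. Per1 rose from 98.1, 77.1 and 73.1 CPM to 150, 137 and 142 CPM (0.79 ± 0.14) and Per2 from a range of 39.6 to 55.1 CPM to one of 69.7 to 72.1 CPM (0.55 ± 0.12); both were lower again at 12 h, by 0.97 and by 0.53. Arntl, the positive arm of the clock, was at 49.3 to 59.8 CPM and at 49.0 to 55.0 CPM, and Nr1d1 was not called either (-0.08 and 0.14). Rora fell from 763, 587 and 769 CPM to 400, 295 and 396 CPM (-0.96 ± 0.18) and was not lower at 1 week than in fed mice (0.25). The hour of collection could not be compared between groups.

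**Figure D5:**
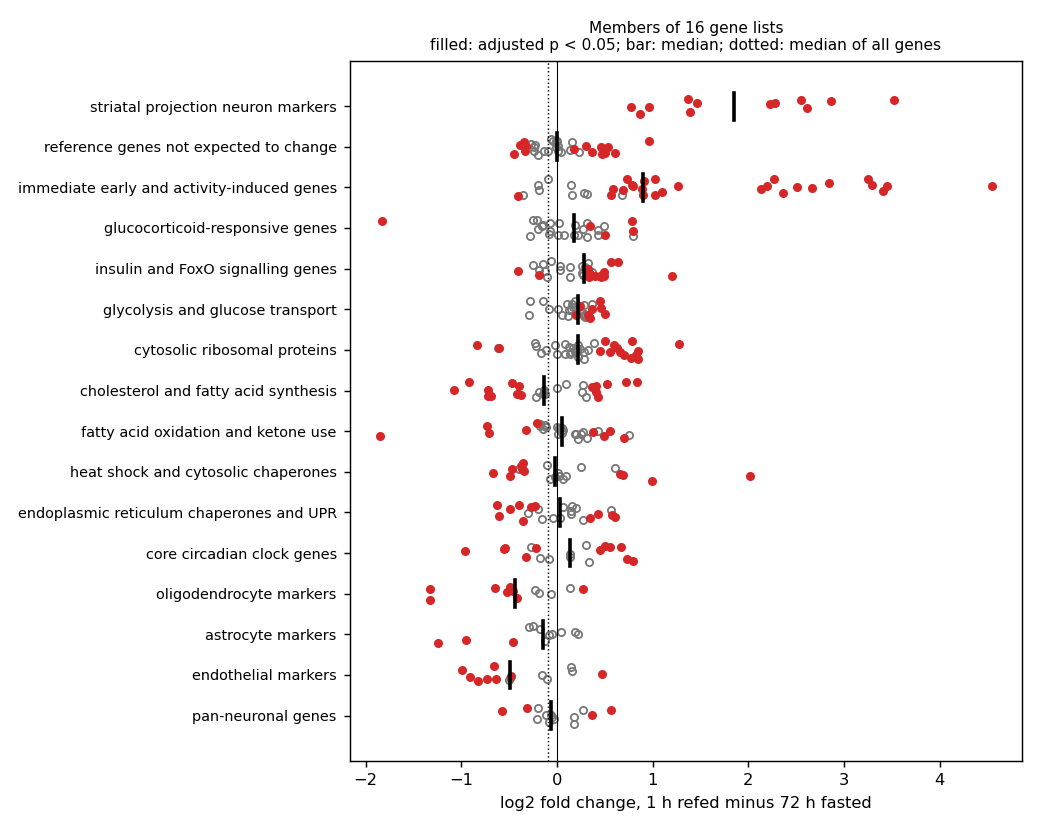
Log2 fold change from 72 h fasted to 1 h refed (linear axis) of each tested member of 16 gene lists; filled red points passed an adjusted p of 0.05, open points did not, black bars are list medians and the dotted line is the median of all genes, -0.09. The striatal (1.85) and immediate early (0.90) lists have the highest medians and the endothelial (-0.49) and oligodendrocyte (-0.44) lists the lowest.

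Oligodendrocyte and endothelial markers had more members called lower than higher. Of 12 oligodendrocyte markers 7 fell and 1 rose, with a median of -0.44. Counted over all 12, 6 were lower at 1 week than in fed mice. Only 1 of the 7 passed the test of the difference (3.97% of all genes were lower in both). That one was Opalin, a late myelin gene, at 26.4, 23.1 and 30.1 CPM and then at 11.2, 11 and 9.53 CPM (-1.33 ± 0.20). The major myelin gene Mbp (-0.46) was called lower with TMM but not with RLE size factors, and the list's count was 4 there. It was 3 or 4 in each fit that left out 1 of the 6 libraries. Of 14 endothelial markers 7 fell and 1 rose, with 13 lower from fed to 1 week refed; in the test of the difference 10 were higher and 0 lower, with a median of 0.82. Flt1, a VEGF receptor gene, fell by 0.82 at 1 h, and by 2.14 between the groups outside the comparison.

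The genes that fell most at 1 h and passed the test of the difference were from several cell types. Kcng4, a potassium channel subunit gene, went from 10.2, 10.7 and 13.3 CPM to 1.37, 1.78 and 1.85 CPM (-2.77 ± 0.38), and Galnt5, a glycosyltransferase gene, from 14.3, 14.6 and 18.7 CPM to 2.18, 2.81 and 3.61 CPM (-2.46 ± 0.26). Cd180, a B cell and microglial receptor gene, fell by 2.06. Prr5l, an mTORC2 partner gene, went from 74.1, 84.1 and 104 CPM to 21.1, 22.1 and 30.9 CPM, and St18, an oligodendrocyte zinc finger gene, from 149, 157 and 138 CPM to 47.7, 51.1 and 48.7 CPM. The groups stood apart in each of these 5, which was a condition for naming them and held for 29.5% of all genes. Cd180, Prr5l and St18 were higher again at 12 h, by 1.46, 0.97 and 0.81. Creb5, named after its values were seen, had the same order: it fell by 1.51 at 1 h and rose by 0.76 to 12 h. From 1 h to 12 h 1.75% of all genes were called higher. Picking genes by a fall from 72 h to 1 h favours a low 1 h mean, which the step to 12 h shares.

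Other large changes were also large between the groups outside the comparison. Tex14, a germ cell bridge gene, fell from 549, 350 and 407 CPM to 42.5, 43.6 and 49.5 CPM (-3.27), with -4.32 from fed to 1 week refed. Hba-a1, an alpha globin gene, was at 0.07 to 0.14 CPM in the 72 h libraries and at 39.7, 25.7 and 20.8 CPM at 1 h (8.02), with 6.86 from fed to 1 week refed; its copy Hba-a2 is nearly identical. Slc4a1, another red cell gene, was not called. The pituitary hormone genes Gh and Prl were at most 0.06 and 0.30 CPM in the 72 h libraries, and at 36.3, 10.9 and 0.968 CPM and 21.1, 11.7 and 0.997 CPM at 1 h. Alb, for liver, was at most 0.465 CPM in all 6 libraries, and Ttr, for choroid plexus, was at 1.61 to 6.31 and 0.53 to 2.33 CPM. Nkx2-1, a factor of the hypothalamus, was present in all 6, at 8.07 to 11.5 and 12.7 to 20.4 CPM.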

How the data were processed

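RNA was extracted with an RNeasy kit and libraries were made with a directional, ribosomal RNA-depleting kit, per the labels' protocols. The authors deposited whole-number read counts per Ensembl gene in 2 tables; HISAT2, featureCounts and mm10 are named, without versions, in the submitters' processing notes, and no source used here says whether the counting used strand. The 52286 genes in both tables were joined by Ensembl ID (the refeeding table lists 55401, and the genes left out hold at most 1.82% of a library's counts).

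Counts of 22 libraries in 7 groups were fitted together with edgeR 4.0.16 (R 4.3.3): filterByExpr, TMM scaling, robust quasi-likelihood F-tests and Benjamini-Hochberg adjustment over all 20966 tested genes, threshold 0.05. Standard errors are the log2 fold change divided by the square root of F. CPM values are TMM-scaled. Of the 1 week libraries, 3 could be tied only to their group, since titles and library names disagree. The fit was tested on simulated data. No replicate pair agreed within sampling noise (chi-square per degree of freedom 8.59 to 17.6). Gene spans and overlaps are from GENCODE, promoters from RefSeq, both GRCm38.

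Named genes were the 12 largest non-overlapping calls per direction of at least 2 CPM, the same within those passing the test of the difference, fixed peptide and tissue genes, up to 5 called and 3 uncalled members of each of 17 pathway lists, and the extreme reference genes; part of these are printed, and a few list members beside them were picked after their values were seen. Some genes that this rule names are not reported here. The comparison and the 34 lists were chosen with earlier results of these data known. Alternatives were other scalings, filters, DESeq2 1.42.0, the groups of each comparison alone, a surrogate variable, a replicate block, a gene span correction, protein-coding genes alone and leaving out each library.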

Additional observations from a re-analysis of the deposited data

Results flagged for a closer look

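The change from 72 h fasted to 1 h refed differed from the change from fed to 1 week refed for 3299 genes, tested as a difference within one model. The immediate early genes are among them (26 of 35 higher). The count rests in part on single libraries: it was 2087 without the second fed library, which carries 999.5 CPM of summed liver and 1558 CPM of summed skeletal muscle transcripts (3.35 to 8.11 and 19.1 to 31.3 CPM in the 72 h libraries), and 5481 without the third.

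In 2 of the 34 lists 1 of the 4 libraries refed for 1 week stood apart from the other 3, with a gap to its neighbour that took 0.920 (endoplasmic reticulum chaperones) and 0.846 (cold-inducible RNA-binding proteins) of the range, above the limit of 0.829. The chaperone sum was 2495 CPM in that library and 2099 to 2131 CPM in the others; the cold-inducible sum was 261 CPM and 295 to 301 CPM. Chance alone passes this limit in about 1 of 20 groups.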

How the results depend on the processing

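The 25 immediate early genes called higher were 25 or 26 in each fit that left out a library and 17 to 25 under the other settings. The 26 higher in the test of the difference were 16 with the striatal score, 21 scaled to reference genes and 22 with a surrogate variable. They were 24 to 27 in the other fits with more than 1 library in the 1 h group. Of 120 called genes named here, 100 kept their call whichever single library of the 72 h and 1 h groups was left out. The genes called between 72 h and 1 h fell from 7236 to 3218 with the striatal score and to 3169 with the second library alone in the 1 h group. The calls from fed to 1 week refed fell from 8943 to 4921 with a surrogate variable. The calls of the difference fell from 3299 to 326 with the surrogate variable, to 150 with the striatal score and to 485 with the second library alone, and ranged from 2087 to 5481 when 1 library was left out (lowest without the second fed library, highest without the third; 2191 without the first 1 h library). The calls from 1 h to 12 h went from 943 to 347 scaled to reference genes, 2244 in those groups alone, 1666 with DESeq2, 55 with the second library alone and 286 to 629 without 1 library. These causes were not tested.

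Scaling to the summed reference genes shifted the median of all genes from -0.09 to -0.45 and the split of calls from 3223 higher and 4013 lower to 704 and 8605. Relative to the median of all genes the immediate early list was at 0.99 under both. This distance is nearly fixed in advance, because the scaling shifts all genes of a library by the same factor. Under that scaling 32 of the 120 calls were lost, 22 reference genes (14 under TMM) and 9 glucocorticoid-responsive genes (5) were called, and Tfrc was called lower (-0.36). With RLE factors the split was 3770 higher and 3316 lower, and with the gene span trend taken out it was 4039 and 3234.

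The second library alone gave 6 called reference genes, 0 of 12 striatal markers, 2 glucocorticoid-responsive genes (7 in place of 17 from 1 h to 12 h) and 2 oligodendrocyte markers. The striatal score gave 4 called reference genes, 2 oligodendrocyte markers, 4 of 7 endothelial markers and 0 striatal markers; since the markers form the score, Drd1 (-0.091), Drd2 (-0.20), Adora2a (-0.16) and Ppp1r1b (-0.094) changed sign by construction. Without 1 library the striatal markers called ranged from 5 (without the first 1 h library) to 12 and the oligodendrocyte markers from 3 to 4, with 4 under RLE. The replicate block gave 7321 calls; the numbers share no stated animal or day and the same-numbered correlations were 0.04 to 0.09, although each sample correlated best with its own number.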

Other observations

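Counts at 1 h for other lists stand against 15.4% of all genes called higher and 19.1% called lower. Of 33 nuclear oxidative phosphorylation subunits 6 were higher and 3 lower, and of 14 pan-neuronal genes 2 were higher and 2 lower, with medians of 0.05 and -0.06. Of 19 transcription factors of hypothalamic nuclei 5 were higher and 1 lower; the lower one, Lhx9, was at 28.2, 8.64 and 19.3 CPM and then at 4.33, 4.25 and 6.86 CPM, and was also lower at 1 week than in fed mice (-2.01). Tanycyte genes, for the glia lining the third ventricle, had 3 higher and 1 lower of 15.

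Astrocyte markers had 3 lower of 12, microglia markers 1 higher and 3 lower of 10, smooth muscle and pericyte markers 2 lower of 13, choroid plexus markers 2 higher and 1 lower of 12, meningeal markers 1 lower of 9 and thalamic and cortical neuron markers 3 higher and 5 lower of 14. Of 7 blood cell markers 4 were higher, all globin genes, and of 6 pituitary hormone genes 2. Of 11 liver and 9 skeletal muscle transcripts 0 were called by edgeR.

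Mfsd2a, the lipid transporter of brain vessels, was the 1 endothelial marker called higher: it rose by 0.47 at 1 h and fell by 1.65 to 12 h. Pnpla2, a triglyceride lipase gene, had the same order (0.56, then -1.43).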
